A study of Mus musculus with 6 samples.

Results

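The genes described here are 10 junction and transporter genes of the blood-brain barrier, namely the transporters Slc2a1, Mfsd2a, Abcb1a, Abcg2, Slco1c1, Slco1a4, Slc7a5 and Slc16a1 and the tight junction genes Cldn5 and Ocln. They were taken by gene symbol from the 56884 genes counted in the series, and each was found once. Their transcripts were counted as unique molecular identifiers (UMIs, 1 for each captured transcript) in endothelial cells (ECs) of cerebral cortex, with lung ECs as a contrast. A cell barcode was counted as endothelial when at least 2 of the 3 general EC transcripts Pecam1, Egfl7 and Tie1 were detected in it. None of the 10 genes was part of that rule.

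There were 6 single-cell libraries made on the BD Rhapsody platform, each from pooled cells of 2 mice of 1 genotype. For lung the pooled mice are described as littermates. Cortex came from P12 mice of the Nodal line and lung from P21 mice of the Bdnf and Hgf lines. In each line the control was homozygous for the floxed allele (Nodal lox/lox, Bdnf lox/lox or Hgf lox/lox) and its partner was the corresponding iPCKO. Hematopoietic cells (CD45+) and erythrocytes were depleted from the lung suspensions, and myelin debris was removed from those of cortex. In iPCKO mice the floxed gene is removed by a tamoxifen-inducible Cre under Pdgfrb control, which acts in pericytes and other Pdgfrb-expressing cells rather than in ECs. Cre was induced with 50 μg tamoxifen on each day from P1 to P3. Whether the controls were also injected or carried Cre is not given separately in the sources used here. Each group was 1 library, so no difference below has a replicate, no p-value was computed, and the 95% intervals (exact Poisson for levels, exact conditional for ratios, exact binomial for shares of cells) cover counting error only.

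Brain capillary ECs are sealed by tight junctions and form few transport vesicles. Nutrients thus cross through dedicated carriers while efflux pumps return many lipophilic compounds to the blood. This set of properties is acquired during brain vascularization under Wnt/β-catenin signalling and depends on pericytes and astrocytes around the vessel. Lung capillary ECs lack most of these carriers and form a thin gas-exchange surface.

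In cortex, 859 of 3237 barcodes of the Nodal control library and 1534 of 5009 of the Nodal iPCKO library were endothelial, with medians of 10076 and 10360 UMIs. In lung, 5845 of 17155 (Bdnf control), 8238 of 24311 (Bdnf iPCKO), 5841 of 14622 (Hgf control) and 7779 of 16155 (Hgf iPCKO) barcodes were endothelial, with medians between 2375 and 5210 UMIs. All 8 EC markers outside the rule were detected in each of the 6 libraries, and their summed level lay between 6950 and 7966 CPM, that is UMIs scaled to a common total over the same barcodes. Barcodes that also met the marker rule of another cell class were 5.94 and 4.11% of endothelial barcodes in cortex but 12.3 to 23.0% in lung, where alveolar type 2 markers summed to 8807 to 19501 CPM against 14.0 and 15.6 CPM in cortex. Libraries shared 21 to 457 barcodes per pair, close to the number expected by chance in most pairs, but Nodal iPCKO shared 108 with Hgf control (80.2 expected) and 116 with Hgf iPCKO (88.7 expected). Leaving out every shared barcode changed no call for the 10 genes in the Nodal comparison or between the control tissues. Nodal itself had 179 UMIs in 264 pericyte-marker barcodes of the control cortex and 0 in 407 of the Nodal iPCKO cortex, where the upper end of the exact Poisson interval was 1.47 CPM.

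The 10 genes lie on 7 chromosomes of GRCm39. The closest neighbours were Slco1c1 (chr6:141469705-141516710, plus strand) and Slco1a4 (chr6:141751165-141802036, minus strand), 234 kb apart. Exons were counted in the transcript tagged as canonical for each gene. Cldn5 (chr16:18595597-18597012, plus strand) has a single exon there, whereas Mfsd2a (chr4:122840643-122855244, minus strand) has 14 and Abcb1a (chr5:8710022-8798575, plus strand) has 28. Because Wnt/β-catenin signalling acts through TCF/LEF factors, the 250 bases before the outermost annotated start of each gene were searched for the letters CTTTGA on either strand (TCAAAG when read on the opposite one). They were in the windows of 2 of the 10 genes, against 15.0% of 21770 windows of the same length. The window of Abcb1a held them from base -127 before the start, and that of Cldn5 did not. The forkhead letters TGTTTAC and the ETS letters CCGGAAG were in none of the 10 windows, against 2.97% and 5.75% of all windows. Such a match only describes the letters present, and its absence describes only this window. Of the Cldn5 UMIs in control cortex barcodes with at least 1500 UMIs, 99.2% were in ECs. The window of Cldn5 is shown 5′ to 3′ on the gene's strand, at chr16:18595347-18595596 (plus strand). It holds none of the letters searched and so has no capitals.
Cldn5: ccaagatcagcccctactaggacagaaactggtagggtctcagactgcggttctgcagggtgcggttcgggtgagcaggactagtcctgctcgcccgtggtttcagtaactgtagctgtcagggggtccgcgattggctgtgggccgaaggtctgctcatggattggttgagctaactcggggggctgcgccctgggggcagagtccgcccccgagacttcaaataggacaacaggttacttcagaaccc

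All 10 genes had a higher level in ECs of control cortex than in ECs of either control lung, but the size of the difference set the genes apart. A gene was called different between tissues when the ratio was at least 4-fold with its interval on the same side of 1, among genes with at least 50 UMIs over both libraries. Of the 10 genes, 9 were called higher in cortex than in Bdnf control lung, where 6.62% of all 17208 genes were called in that direction (12.9% lower, 19.5% in either), and 8 in the comparison with Hgf control lung, where 7.18% of 15408 genes were (10.3% lower, 17.5% in either). The median log2 ratio of the 10 genes was 7.06 against Bdnf and 7.38 against Hgf control lung, beside -0.11 and -0.13 over all genes compared. Tissue, age, dissociation and floxed gene all differ between these libraries and cannot be told apart.

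**Figure D1:**
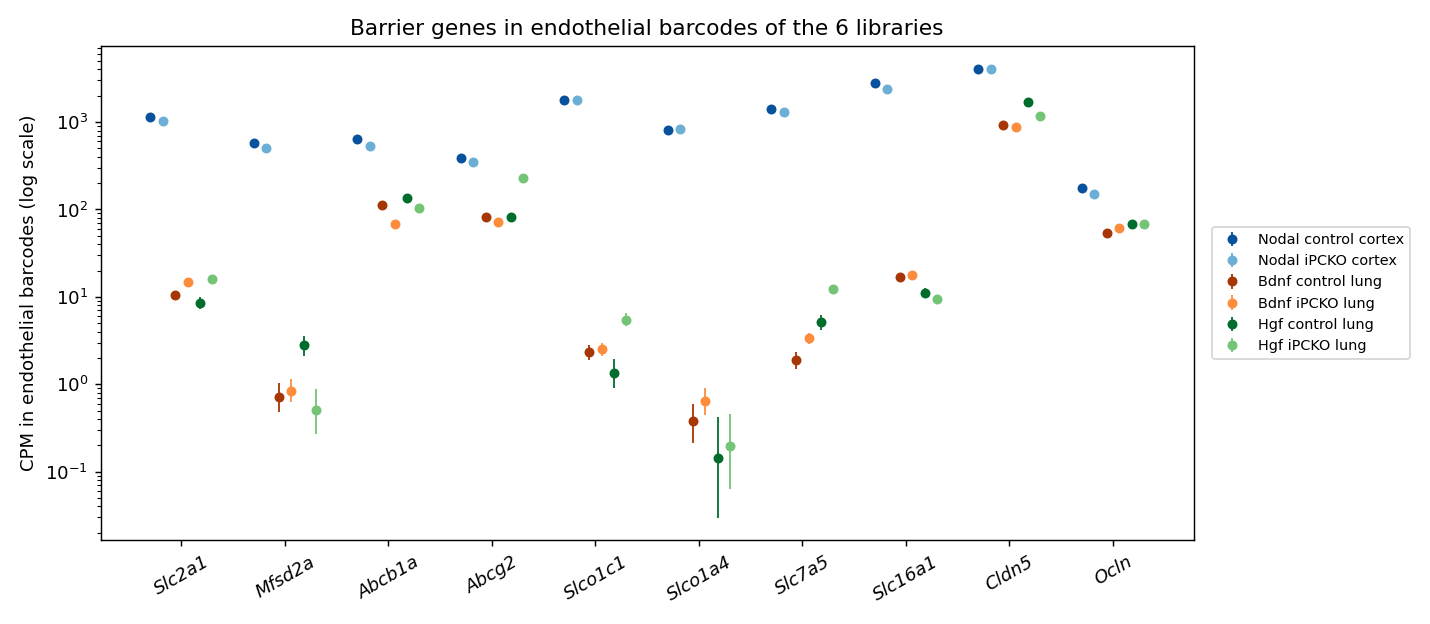
Level of each gene in endothelial barcodes of the 6 libraries, in CPM on a log axis. Points are library values and bars are exact Poisson 95% intervals. Both cortex libraries sit above all 4 lung libraries for every gene, with the lowest lung levels for Slco1a4.

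Slc2a1 encodes the glucose carrier of the barrier. It had 1146 CPM (11841 UMIs, interval 1125 to 1167) in Nodal control and 1023 CPM in Nodal iPCKO cortical ECs, and 10.5, 14.6, 8.57 and 16.2 CPM in lung ECs of Bdnf control, Bdnf iPCKO, Hgf control and Hgf iPCKO, the order used for lungs from here on. Control cortex was thus 109-fold above Bdnf control lung (log2 ratio 6.76, 6.63 to 6.90) and 134-fold above Hgf control lung (7.06, 6.85 to 7.29). The lung values were below the level in nearly empty barcodes of the same libraries (10 to 100 UMIs, 17.4 to 28.6 CPM), which hold free RNA. Ratios over such low lung levels are of all counted UMIs, and the part of free RNA in them was not tested. Slc16a1, a carrier of lactate and ketone bodies, had 2789 and 2415 CPM in cortex and 17.0, 17.8, 11.2 and 9.38 CPM in lung ECs. Its lung level was again under that of nearly empty barcodes (27.2 to 44.8 CPM), and the ratio of control cortex to the control lungs was 164-fold (log2 ratio 7.36, 7.26 to 7.47) and 250-fold (7.96, 7.78 to 8.16).

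Slc7a5, which imports large neutral amino acids, had 1398 and 1308 CPM in cortex and 1.90, 3.34, 5.10 and 12.4 CPM in lung ECs. The cortex groups lay close together and far above the lungs, with ratios of 737-fold to Bdnf control (log2 ratio 9.53, 9.21 to 9.86) and 274-fold to Hgf control (8.10, 7.82 to 8.39). Slco1c1, an organic anion transporter that carries thyroxine, had 1813 CPM in both cortex libraries and 2.31, 2.52, 1.35 and 5.49 CPM in lung ECs, so that control cortex was 784-fold (9.61, 9.33 to 9.91) and 1345-fold higher (10.39, 9.86 to 10.98). Both carriers lay under the level of nearly empty barcodes in every lung library (7.56 to 23.6 CPM for Slc7a5, 7.26 to 17.6 CPM for Slco1c1). The widest ratios were those of Slco1a4, the neighbour of Slco1c1, which carries bile acids and steroid conjugates. Slco1a4 reached 815 and 833 CPM in cortex and 0.378, 0.636, 0.144 and 0.196 CPM in lung, from 16, 33, 3 and 5 UMIs. The log2 ratio was 11.08 (interval 10.40 to 11.91) against Bdnf control lung and 12.46 (10.92 to 14.74) against Hgf control lung.

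Mfsd2a takes up lysophospholipids carrying omega-3 fatty acids and limits vesicle traffic in brain ECs. Its levels were 582 CPM (interval 568 to 597) and 508 CPM in cortex and 0.717, 0.845, 2.79 and 0.510 CPM in lung, from 13 to 58 UMIs per lung library and under the level of nearly empty barcodes (1.81 to 10.1 CPM). The log2 ratio was 9.67 (interval 9.16 to 10.22) to Bdnf control and 7.70 (7.33 to 8.10) to Hgf control. Without barcodes that also met another class, Mfsd2a had 4, 8, 14 and 1 UMIs in the lungs, and the ratios became 12.07 and 9.35 on the log2 scale. Slc16a1 moved the same way, from 7.36 to 8.95 against Bdnf control and from 7.96 to 9.45 against Hgf control, as did Slc7a5 against Hgf control (8.10 to 8.90). Alveolar type 2 barcodes of the lungs had 4.22, 3.99, 18.1 and 6.66 CPM of Mfsd2a and 62.8 to 80.6 CPM of Slc16a1.

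The efflux pumps and the junction genes differed less between tissues. Abcb1a, the P-glycoprotein pump of the barrier, had 634 and 536 CPM in cortex and 112, 68.9, 136 and 103 CPM in lung ECs, and control cortex was 5.68-fold (log2 ratio 2.51, 2.45 to 2.56) and 4.66-fold (2.22, 2.16 to 2.29) higher than the control lungs. Abcg2, the breast cancer resistance protein pump, had 384 and 347 CPM in cortex and 83.0, 71.8, 81.7 and 230 CPM in lung ECs. The Hgf iPCKO lung thus came nearest to the cortex, and the control ratios were 4.62-fold (2.21, 2.14 to 2.27) and 4.70-fold (2.23, 2.15 to 2.31). Cldn5, the main claudin of endothelial tight junctions, had 4063 and 4088 CPM in cortex and 929, 868, 1712 and 1170 CPM in lung ECs. Its ratio was 4.37-fold to Bdnf control (2.13, 2.11 to 2.15) and 2.37-fold to Hgf control (1.25, 1.23 to 1.27), the latter under the 4-fold limit.

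Ocln, which encodes the tight junction protein occludin, had 178 and 151 CPM in cortical ECs and 53.9, 60.9, 68.5 and 68.3 CPM in lung ECs. Control cortex was 3.31-fold (log2 ratio 1.72, 1.64 to 1.81) and 2.60-fold (1.38, 1.28 to 1.48) above the control lungs, and Ocln was called in neither comparison. In all 4 lungs, the levels of Abcb1a, Abcg2 and Cldn5 exceeded those of nearly empty barcodes (21.9 to 41.0, 33.7 to 148 and 125 to 271 CPM), whereas Ocln did not (73.4 to 84.8 CPM). In cortex all 10 genes were higher in ECs than in nearly empty barcodes of the same library. Without barcodes that met another class, Abcg2 (log2 ratio 1.88) and Cldn5 (1.83) dropped under the 4-fold limit against Bdnf control lung, Ocln passed it (2.02), and Abcg2 (1.99) dropped under it against Hgf control lung. In the iPCKO libraries, 9 genes were called higher in cortex than in Bdnf iPCKO lung (7.06% of 18178 genes, 13.3% lower, 20.4% in either direction). Against Hgf iPCKO lung 7 were (8.08% of 16468 genes, 10.6% lower, 18.7% in either direction), and there Abcg2 (log2 ratio 0.59), Cldn5 (1.81) and Ocln (1.15) were not called.

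**Figure D2:**
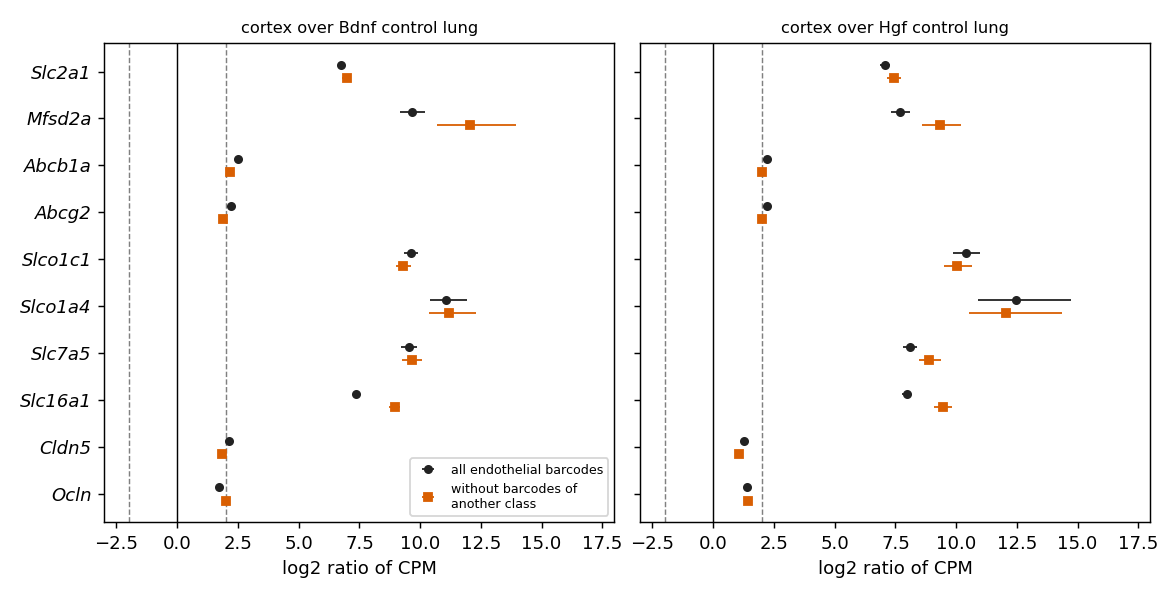
Log2 ratio of CPM in control cortical ECs over Bdnf control lung (left) and Hgf control lung (right) for each gene, with 95% counting intervals. Circles are all endothelial barcodes, squares leave out barcodes that also met another class, and dashed lines mark 4-fold. Abcb1a, Abcg2, Cldn5 and Ocln lie near the 4-fold line and the other 6 genes at log2 ratios of 6.76 or more.

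Shares of ECs with at least 1 UMI showed the same split. In Nodal control cortex, a UMI was found in 94.5% of endothelial barcodes for Slc2a1, 85.0% for Mfsd2a, 94.1% for Slco1c1, 82.2% for Slco1a4, 90.9% for Slc7a5 and 94.9% for Slc16a1. The corresponding shares in Bdnf control lung were 6.59, 0.376, 1.37, 0.188, 1.30 and 8.33%, at a lower depth. After each barcode was thinned to 700 UMIs, which excluded no barcode, the cortex shares were 53.9, 32.4, 66.7, 39.9, 59.7 and 77.8%, and no lung library exceeded 0.923% for any of the 6. Cldn5 was detected in 89.4% of thinned ECs of control cortex against 45.9 to 68.4% in the lungs. Pericyte-marker barcodes of the control cortex (264, median 5452 UMIs), a class outside the barrier endothelium, held a Mfsd2a UMI in 1.52%, a Slco1c1 UMI in 4.17% and a Slc7a5 UMI in 12.1% before thinning. At 700 UMIs a cortical EC carried a median of 5 of the 10 transcripts in both genotypes, and 64.6% of control and 57.5% of Nodal iPCKO ECs carried 5 or more. A lung EC carried a median of 1, and 24.9 to 44.6% of lung ECs carried none. At 1500 UMIs, 86.5% of control and 85.9% of Nodal iPCKO cortical ECs carried 5 or more, with a median of 7 in both.

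Deletion of Nodal in Pdgfrb-expressing cells was accompanied by small differences in cortical ECs. For genotype, a gene was called when the ratio was at least 1.5-fold with its interval on the same side of 1. None of the 10 genes was called, beside 7.80% of 14546 genes (2.82% higher and 4.98% lower in iPCKO). The median log2 ratio of iPCKO over control was -0.15 for the 10 genes and -0.05 for all genes. For 7 genes the counting interval lay below 0 and for none above it, while Cldn5, Slco1c1 and Slco1a4 had intervals that included 0. Over all 14546 genes the interval lay below 0 for 19.1% and above it for 11.9%, a share that also depends on how many UMIs a gene has. These intervals leave out the difference between mice, which a single library per genotype cannot give.

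The 3 genes with intervals across 0 had log2 ratios of 0.01 (-0.01 to 0.03) for Cldn5, 0.00 (-0.03 to 0.03) for Slco1c1 and 0.03 (-0.01 to 0.07) for Slco1a4. Their levels in the 2 libraries were close: 4063 and 4088 CPM, 1813 and 1813 CPM, and 815 and 833 CPM. The farthest from 0 were Abcb1a at -0.24 (-0.29 to -0.20), Ocln at -0.24 (-0.32 to -0.15), Slc16a1 at -0.21 (-0.23 to -0.19) and Mfsd2a at -0.20 (-0.24 to -0.15), with iPCKO levels 0.845 to 0.873 times those of control. Slc2a1 was at -0.16 (-0.20 to -0.13), Abcg2 at -0.14 (-0.20 to -0.09) and Slc7a5 at -0.10 (-0.13 to -0.07). Under median-of-ratios scaling, which shifts all ratios upward, Cldn5 was at 0.05, Slco1c1 at 0.04 and Slco1a4 at 0.08, and the other 7 stayed below 0. Read against all genes compared, the 10 ratios lay between the 22.9 and the 63.3 percentile. The share of ECs with a UMI after thinning to 700 UMIs was lower in iPCKO than in control for Slc7a5 (54.6 against 59.7%), Slc16a1 (73.3 against 77.8%), Mfsd2a (30.1 against 32.4%), Abcb1a (34.4 against 37.6%) and Abcg2 (22.6 against 24.4%), and higher for Slco1a4 (42.6 against 39.9%) and Cldn5 (90.7 against 89.4%). These differences had the same direction at 1500 UMIs. Before thinning, the iPCKO share was higher for Slc7a5 (91.7 against 90.9%), Slc16a1 (96.7 against 94.9%), Mfsd2a (87.4 against 85.0%) and Abcb1a (91.2 against 89.6%). Abcg2 stayed lower (87.5 against 89.1%), and Slco1a4 (85.9 against 82.2%) and Cldn5 (97.0 against 95.5%) stayed higher. The order of the libraries changed between 700 and 1500 UMIs for Ocln (13.0 against 11.5%, then 22.5 against 24.1%), Slc2a1 (50.4 against 53.9%, then 74.5 against 74.2%) and Slco1c1 (67.7 against 66.7%, then 84.1 against 84.6%).

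Transcripts of other cell types in the endothelial barcodes differed between the Nodal libraries. From control to iPCKO, summed pericyte markers went from 462 to 361 CPM, astrocyte markers from 366 to 273, microglia markers from 531 to 305 and fibroblast markers from 81.8 to 39.3, while neuron markers went from 326 to 363 and erythrocyte markers from 1486 to 2490. The part of these in the ratios was not tested. After barcodes that met another class were left out, the calls were the same.

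**Figure D3:**
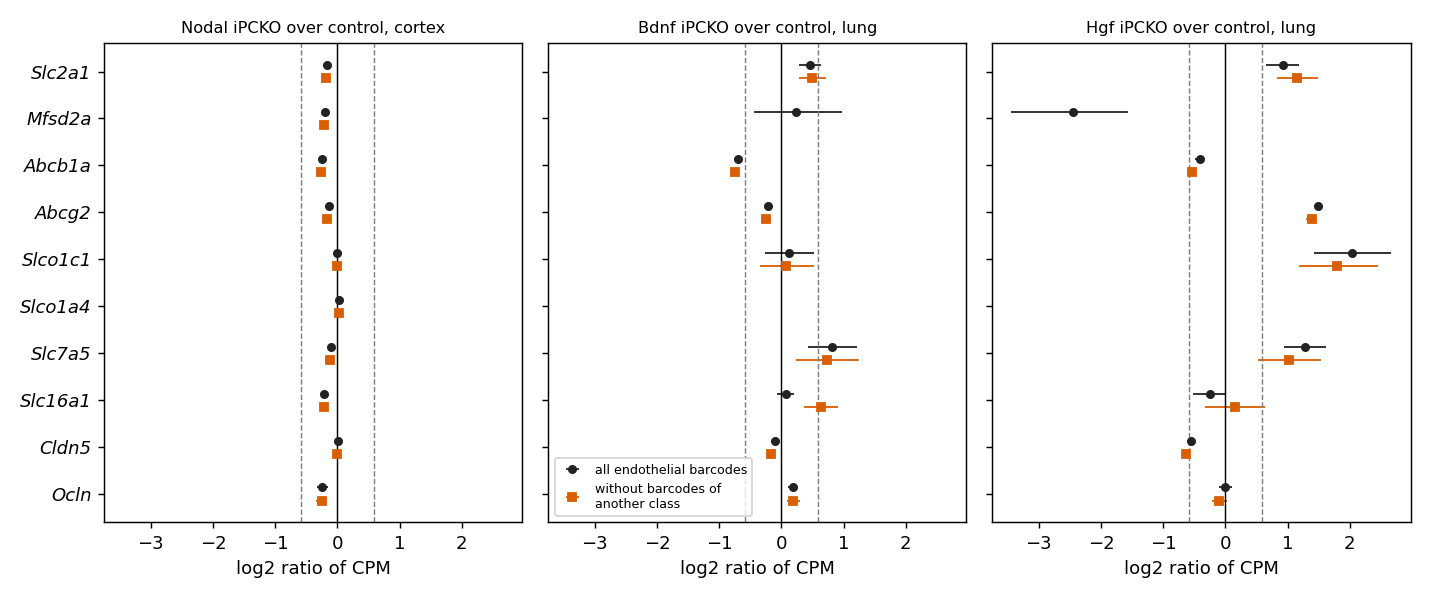
Log2 ratio of CPM, iPCKO over control, in endothelial barcodes of Nodal cortex (left), Bdnf lung (middle) and Hgf lung (right), with 95% counting intervals. Circles are all endothelial barcodes, squares leave out barcodes that also met another class, and dashed lines mark 1.5-fold. A gene is not drawn where it had under 50 UMIs over both libraries. All 10 cortical ratios lie between the dashed lines.

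Across single cortical ECs the 10 transcripts varied together to different degrees. Over the 45 pairs of genes, Pearson's r of log-scaled levels ranged from 0.15 to 0.70 with a median of 0.43 over 859 barcodes of control, and from 0.11 to 0.67 with a median of 0.39 over 1534 barcodes of iPCKO. The closest pair in both libraries was Slco1c1 with Slc16a1 (0.70 and 0.67). Abcg2 varied least with Slc7a5 and Mfsd2a in control (0.16 and 0.15). These barcodes share a library and differ in depth and in how much RNA of other cells they hold, so the values are given as a description.

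Position along the vessel, as read from marker genes, went with larger differences than genotype for several genes. Endothelial barcodes were sorted by arterial and venous marker genes, none of them among the 10, into 82 arterial, 60 venous and 716 remaining barcodes in control and 106, 99 and 1328 in iPCKO. The arterial markers were Bmx, Gkn3, Sema3g, Vegfc, Gja5, Gja4 and Hey1. The venous markers were Nr2f2, Vwf, Slc38a5, Vcam1, Icam1 and Lcn2. In each library 1 barcode met both rules and was left out. Slc7a5 was low in arterial ECs of both libraries, with 274 CPM against 1580 CPM in the remaining ECs of control (log2 ratio -2.53) and 291 against 1435 CPM in iPCKO (-2.30). Mfsd2a was low in venous ECs, with 263 against 609 CPM in control (-1.21) and 149 against 534 CPM in iPCKO (-1.84). Slco1c1 was also low in venous ECs, with 859 against 1855 CPM in control (-1.11) and 1037 against 1831 CPM in iPCKO (-0.82).

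Other genes were high at one end of the vessel. Slc2a1 reached 1916 CPM in arterial, 1263 in venous and 1042 in the remaining ECs of control, and 1851, 1307 and 939 CPM in iPCKO. Slco1a4 followed an arterial to venous order, from 1293 through 799 to 443 CPM in control and from 1519 through 803 to 556 CPM in iPCKO. Abcb1a was likewise highest in arterial ECs (863 and 883 CPM), whereas Abcg2 was highest in venous ECs (564 and 454 CPM). Ocln had 229 CPM in arterial, 174 in venous and 172 in the remaining ECs of control, and 273, 164 and 141 CPM in iPCKO. Cldn5 had 4696 CPM in arterial, 3403 in venous and 4059 in the remaining ECs of control, and 4949, 3219 and 4089 CPM in iPCKO. Slc16a1 had no common order, with 2743, 2532 and 2824 CPM in control and 2164, 2547 and 2425 CPM in iPCKO.

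Within venous ECs, the genotype ratio was largest for Mfsd2a and Slc7a5. The median depth of these barcodes was 14376 UMIs in control and 9860 in iPCKO, and venous marker cutoffs were set among the ECs of each library. Whether both genotypes gave like venous cells was not tested, nor whether the venous markers follow vessel position alone. Mfsd2a had 239 UMIs in 60 venous barcodes of control and 181 UMIs in 99 of iPCKO, a log2 ratio of -0.82 (-1.10 to -0.53). This ratio is past 1.5-fold, but no share of all genes is given for venous barcodes, so no call was made. Slc7a5 had 955 CPM in control and 654 CPM in iPCKO venous ECs (-0.55, -0.69 to -0.41). In the same barcodes Slco1a4 (0.33, 0.15 to 0.51) and Slco1c1 (0.27, 0.14 to 0.40) were higher in iPCKO. In arterial ECs the ratio was -0.34 (-0.42 to -0.26) for Slc16a1, -0.30 (-0.46 to -0.14) for Mfsd2a and 0.23 (0.13 to 0.34) for Slco1a4. Arterial Ocln was at 0.25 (0.00 to 0.50), on the other side of 0 from its ratio over all ECs (-0.24). In the remaining ECs every ratio lay between -0.29 and 0.01. Summed venous markers over all ECs were 1042 CPM in control and 1372 CPM in iPCKO, and arterial markers 468 and 383 CPM. The highest single venous marker had 331 CPM in control and 596 CPM in iPCKO. Leaving out arterial and venous barcodes changed no call.

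**Figure D4:**
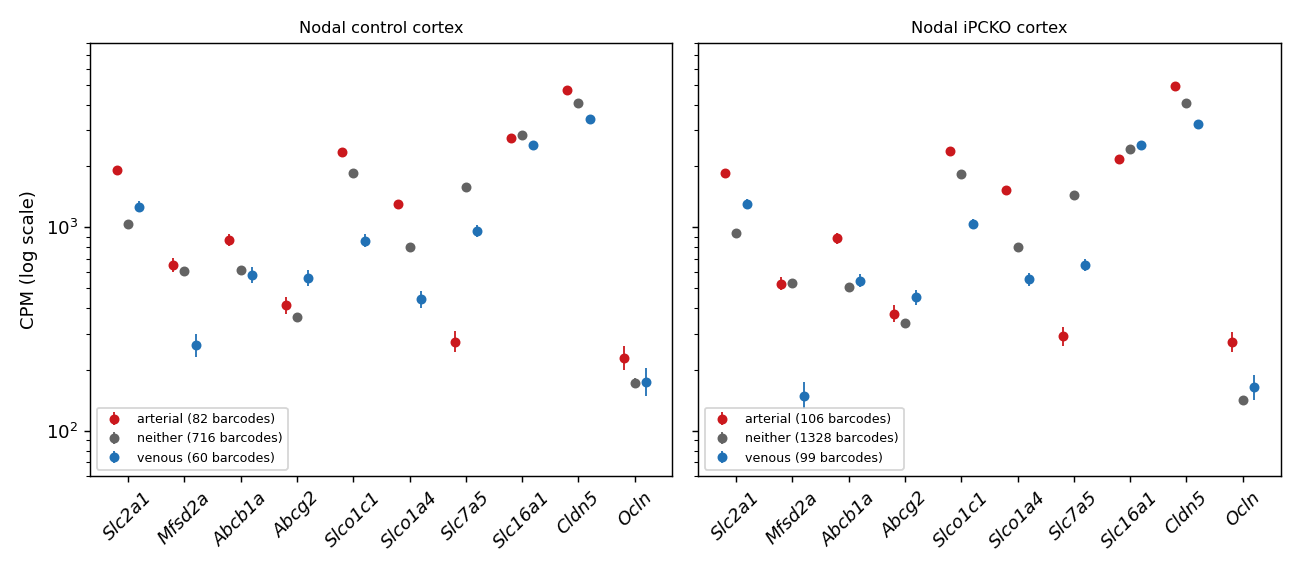
Level of each gene in arterial, venous and remaining endothelial barcodes of the Nodal control (left) and Nodal iPCKO (right) cortex, in CPM on a log axis, with exact Poisson 95% intervals. Slc7a5 is lowest in arterial ECs (274 and 291 CPM) and Mfsd2a in venous ECs (263 and 149 CPM) of both libraries.

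Among the cell classes of the cortex, the 10 genes differed in how far they were shared beyond ECs. Endothelial barcodes held 99.2% of the Cldn5 UMIs in barcodes over the UMI minimum of the control library, 98.2% of Slco1a4, 96.9% of Abcb1a and 96.9% of Ocln, but 66.7% of Slco1c1 and 74.1% of Mfsd2a. They held 34.2% of all UMIs in those barcodes. Astrocyte-marker barcodes (663 in control, 765 in iPCKO) came next, with 1244 and 1062 CPM of Slco1c1 and 277 and 319 CPM of Mfsd2a. In control, ECs were thus 1.46-fold above astrocytes for Slco1c1 and 2.10-fold for Mfsd2a, against 9.90-fold for Slc7a5, 12.1-fold for Slc2a1, 25.1-fold for Slc16a1 and 520-fold for Cldn5. Slco1c1 was found in 96.7% and Mfsd2a in 81.1% of control astrocyte barcodes (median 10386 UMIs), and in 6.46% and 1.53% of microglia barcodes (median 6135 UMIs).

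Lower levels were counted in other classes. Abcg2 had 78.0 CPM in microglia and 129 CPM in fibroblast-marker barcodes of control, and 51.1 CPM in pericyte-marker barcodes, so that ECs exceeded pericytes 7.50-fold for Abcg2 but 59.0-fold for Slc2a1 and 419-fold for Cldn5. Slc16a1 had 270 CPM in 65 fibroblast-marker barcodes. Nearly empty barcodes of the control cortex held 303 CPM of Abcg2 and 895 CPM of Slc16a1, more than any of these values, and the part of free RNA in them was not tested. The astrocyte levels of Slco1c1 and Mfsd2a exceeded those of nearly empty barcodes in both genotypes (1075 and 1020 CPM for Slco1c1, 194 and 157 CPM for Mfsd2a). Cldn5 reached no more than 14.6 CPM in any other class of control.

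**Figure D5:**
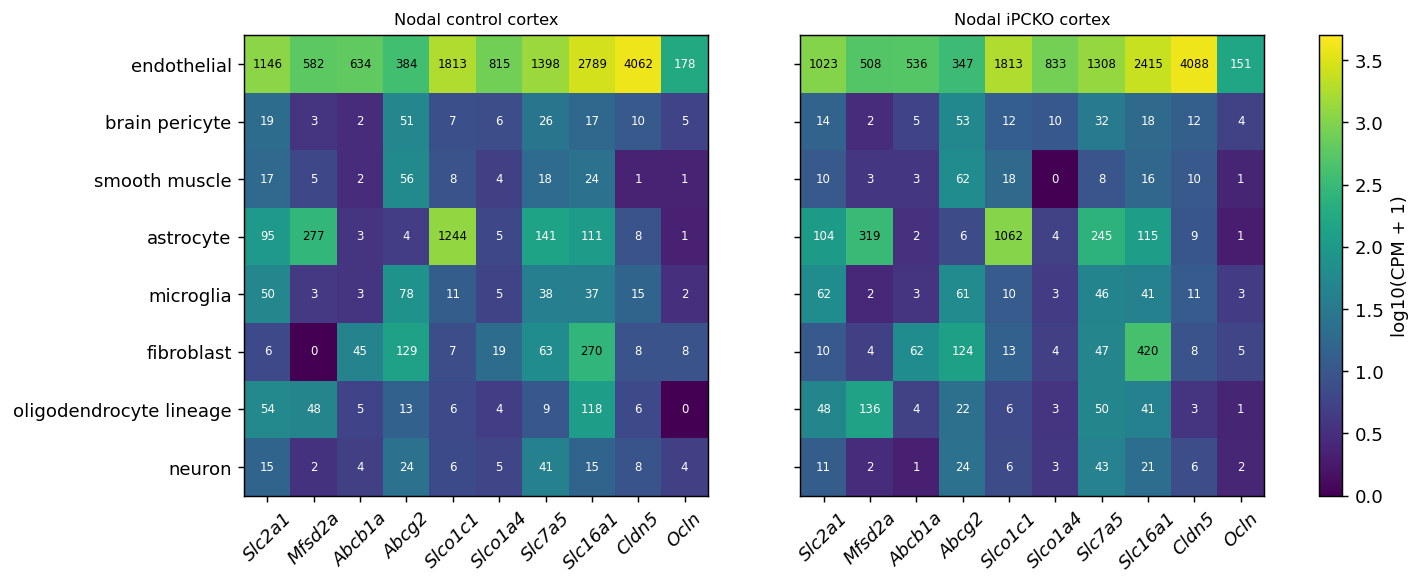
Level of each gene (columns) in endothelial barcodes and 7 other marker-defined classes (rows) of the Nodal control (left) and Nodal iPCKO (right) cortex. Numbers are CPM and colour is log10(CPM + 1). The endothelial row is highest for all 10 genes, and the astrocyte row has the next highest level of Slco1c1 and Mfsd2a.

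In lung ECs the same genes were compared between iPCKO and control of each line, at levels that for most carriers lay under those of nearly empty barcodes. Of the 9 genes with 50 UMIs or more in the Bdnf pair, 1 was called higher and 1 lower in iPCKO, beside 8.91% of all 18839 genes (3.99% higher, 4.93% lower). Abcb1a went from 112 to 68.9 CPM (log2 ratio -0.70, -0.76 to -0.63) and lay above nearly empty barcodes, where it went from 34.6 to 21.9 CPM. Slc7a5 went from 1.90 to 3.34 CPM (0.82, 0.43 to 1.21), from 82 and 172 UMIs, below nearly empty barcodes of the same libraries (7.56 and 10.1 CPM). Without barcodes that met another class, Slc16a1 was also called (0.63).

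In the Hgf pair, 4 of 9 genes were called higher and 1 lower in iPCKO, beside 26.3% of all 16147 genes (11.4% higher, 14.9% lower). Abcg2 went from 81.7 to 230 CPM (log2 ratio 1.49, 1.42 to 1.57), and its level in nearly empty barcodes went from 43.5 to 148 CPM. Slco1c1 (2.03, 1.43 to 2.67), Slc7a5 (1.28, 0.95 to 1.61) and Slc2a1 (0.92, 0.66 to 1.18) were called higher at levels under those of nearly empty barcodes. Mfsd2a was called lower (-2.45, -3.44 to -1.57) on 58 and 13 UMIs, and had too few UMIs to be compared without barcodes that met another class. Alveolar type 2 barcodes of the Hgf libraries had 18.7 and 101 CPM of Slc7a5 and 18.1 and 6.66 CPM of Mfsd2a, control first, and their part in the endothelial values was not tested. Cldn5 went from 1712 to 1170 CPM (-0.55, -0.57 to -0.53), just under 1.5-fold. It was called lower when all 3 EC markers were required (-0.59) and without barcodes that met another class (-0.64).

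The 2 control lungs, which differ in line and in the depth of their libraries, gave a scale for such differences. Between Hgf and Bdnf control lung, 3 of 9 genes were called higher (Mfsd2a at a log2 ratio of 1.96, Slc7a5 at 1.43, Cldn5 at 0.88) and 2 lower (Slco1c1 at -0.78, Slc16a1 at -0.60), beside 23.6% of all 17315 genes (11.1% higher, 12.5% lower). Without barcodes that met another class, Slc7a5 was at 0.76, Ocln was also called higher (0.59) and Slc16a1 was no longer called (-0.50). Slc16a1 was also not called when all 3 EC markers were required (-0.54) or with at least 1500 UMIs in every library (-0.51). For Cldn5 the control lungs thus differed by more than either iPCKO lung did from its own control.

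Genes that act in the same processes were counted by lists that hold none of the 10. In cortical ECs of Nodal iPCKO against control, none of the 14 other junction genes compared, 26 other carriers and 20 genes of the Wnt/β-catenin pathway was called, with median log2 ratios of -0.06, -0.18 and -0.09. Among 8 genes listed for vesicle transport and fenestrae, 2 were called lower. They are Plvap, Cav1, Cav2, Cavin1, Cavin2, Cavin3, Emcn and Ehd4, called vesicle genes here. Emcn is also 1 of the EC markers outside the rule. Over all 14546 genes, 4.98% were called lower and 7.80% in either direction, with a median of -0.05. The 2 vesicle genes called lower were Cav1 and Cavin2. Cav1, the caveolar coat protein, went from 314 to 197 CPM (-0.67, -0.74 to -0.60). Cavin2, which shapes caveolae, went from 364 to 233 CPM (-0.64, -0.70 to -0.58). Plvap, the diaphragm protein of fenestrae and vesicles that brain ECs lose as the barrier forms, had 42 UMIs in control and 49 in iPCKO (-0.61, -1.23 to 0.02). The transferrin receptor gene Tfrc went from 1699 to 1214 CPM (-0.48) and was not called.

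Against Bdnf and Hgf control lung, 16 and 18 of the 26 other carriers were called higher in control cortex and none lower, with medians of 3.21 and 3.26 on the log2 scale. Over all genes, 6.62 and 7.18% were called higher and 12.9 and 10.3% lower, with medians of -0.11 and -0.13. The organic anion carrier Slc22a8 had 9198 UMIs in cortical ECs and 1 and 0 UMIs in the control lungs. Of 20 Wnt/β-catenin genes, 8 were called higher and none lower in each comparison (medians 1.32 and 1.39), among them Lef1, a transcription factor of the pathway (6.18 and 6.18), and Apcdd1, a target and inhibitor (6.55 and 6.91). Of 8 vesicle genes, 5 were called lower in cortex and none higher, with Plvap at 4.06 CPM against 844 and 886 CPM. Of 16 junction genes, 1 was called higher, 2 lower and 13 neither. Lsr, a tricellular junction protein, was higher (3.85 and 4.26), the junction adaptor gene Cgn was lower (-6.55 and -6.89), and Cldn3 had 0 UMIs in cortical ECs against 1601 and 622 UMIs in the control lungs. Endothelial barcodes of these Bdnf and Hgf control lungs also held alveolar type 2 markers, at 18194 and 14833 CPM. The part of other cells in the lung counts of Cgn and Cldn3 was not tested.

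In the lungs, no listed junction, vesicle or Wnt/β-catenin gene and 1 of 22 other carriers (lower) was called in the Bdnf pair, beside 8.91% of all genes. In the Hgf pair, 1 of 16 junction genes was called higher and 3 lower, 5 of 21 carriers higher and 4 lower, 4 of 19 Wnt/β-catenin genes higher and 1 lower, and none of 8 vesicle genes, beside 26.3% of all genes (11.4% higher, 14.9% lower).

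The genes with the most similar patterns were found by the correlation of log2 levels over 44 sums of UMIs, 1 for each cell class of each library, among 19996 genes. Cldn5 was closest to the EC genes Sox17 (r = 0.964) and Robo4 (0.950). Slco1c1 was closest to Slco1b2 (0.860) and Slc38a3 (0.853). Mfsd2a was instead closest to Bcan (0.836) and Gpr37l1 (0.824), genes known from glia. Abcb1a was closest to Tdrp (0.892) and Nos3 (0.891), Abcg2 to Fxyd5 (0.882), Slc7a5 to Lrp8 (0.832), Slc16a1 to Vwa1 (0.808), Slc2a1 to Psors1c2 (0.772) and Ocln to AU021092 (0.912). The sums share libraries and differ in depth, so these values describe likeness across classes and no more.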

How the data were processed

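Expression was measured by single-cell RNA-seq in 6 libraries, 1 per group. According to their methods, the authors aligned reads with STAR 2.7.10a (STARsolo) to GRCm39. At that step no cell filter was set, and multi-mapped reads were shared among genes by expectation maximization. The matrices deposited by the authors thus hold estimated counts (expected counts) of UMIs, unnormalized. In later steps the authors filtered barcodes by complexity, mitochondrial content and high counts, and scored doublets. Gencode vM33 is named in the methods and M26 elsewhere. Positions here use vM39 on the same build. Abcb1a and Slco1a4 have close paralogs that could share reads.

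Barcodes needed 1500 UMIs (Nodal, Bdnf) or 700 (Hgf). No doublet caller was run and barcodes meeting another class were left out in an alternative. Other classes needed 3 markers, or 2 for lists of up to 4. A marker counted only at 20% or more of its mean CPM in the top 0.5% of barcodes of the library. For arterial and venous markers the top 0.5% was taken among endothelial barcodes, with at least 10 barcodes. That minimum set the cutoffs in both cortex libraries, which differ in their number of ECs. A barcode got a class label only if it met no further class and fewer than 2 EC markers were detected in it. Endothelial UMIs were summed per library and rounded, and a side with 0 UMIs was set to 3. Nearly empty barcodes had 10 to 100 UMIs. The authors' pseudoreplicate tests were not used. Genes named outside the 10 were those of fixed lists that were called or farthest from 0, targets, and the closest patterns. The 10 genes and all lists were chosen with earlier results of these data known. Alternatives covered the EC rule, UMI minimum, quality filters, scaling, shared reads, zones and gene minimum. Python 3.11.15, numpy 2.4.6, scipy 1.17.1, pandas 2.3.3 and matplotlib 3.10.9 were used. The pattern closest to Slco1a4 and some promoter windows are not reported here.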

Additional observations from a re-analysis of the deposited data

Results flagged for a closer look

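Some genes had a ratio of Nodal iPCKO over control in another cortical class with a counting interval on the other side of 0 from that in ECs, where each ratio was below 0. With 1 library per genotype the difference between classes was not tested. In astrocyte-marker barcodes Slc7a5 had a log2 ratio of 0.80 (141 to 245 CPM) against -0.10 in ECs, and a UMI was found in 69.4% of control and 81.0% of iPCKO astrocyte barcodes. Mfsd2a was at 0.20 in astrocyte barcodes (277 to 319 CPM) against -0.20 in ECs. Abcg2 was at 0.76 in astrocyte barcodes, from 26 and 53 UMIs, against -0.14 in ECs. Nearly empty barcodes of control and iPCKO held 423 and 453 CPM of Slc7a5, 303 and 235 of Abcg2, 410 and 433 of Slc2a1 and 895 and 942 of Slc16a1. All values given here for these 4 genes outside ECs lie below those levels, and the part of free RNA in them was not tested. In barcodes with oligodendrocyte lineage markers, Mfsd2a was at 1.51 on 26 UMIs in 20 barcodes of control and 99 UMIs in 46 of iPCKO, against -0.20 in ECs. Its levels there (47.9 and 136 CPM) were also under those of nearly empty barcodes (194 and 157 CPM). The median depth of that class went from 26529 to 7506 UMIs, and Slc16a1 in it was at -1.52 (-2.19 to -0.87). In microglia Slc2a1 was at 0.30 (50.1 to 61.6 CPM) against -0.16 in ECs, and Slc7a5 at 0.25 (38.2 to 45.5 CPM) against -0.10. In fibroblast-marker barcodes Slc16a1 was at 0.63 (270 to 420 CPM) against -0.21 in ECs.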

How the results depend on the processing

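In the Nodal comparison, all 100 values of single genes under the alternatives kept their call. The direction changed only for genes near 0, with Cldn5 at -0.01 under 2 alternatives and Slco1c1 on both sides of 0 (-0.02 to 0.04). Between tissues, all 100 and 110 values kept their direction, with 3 and 1 calls changed, those of Abcg2, Cldn5 and Ocln given above. The median ratio of the 10 genes to Bdnf control lung was 7.34 with all 3 EC markers required and 7.96 without barcodes of another class, which made it 8.17 to Hgf control lung. Without those barcodes 2 genes were called higher in the Bdnf pair, and the median of the Hgf pair was 0.59. With all 3 markers 2 genes were called lower in the Hgf pair. Between the 2 control lungs, 1 gene was called lower with all 3 markers, without barcodes of another class and at 1500 UMIs in every library, and Ocln gained a call (0.59) without barcodes of another class. The median there was 0.03 without barcodes of another class, 0.13 with genes of 10 UMIs or more and 0.21 at 1500 UMIs. The cause of these changes was not tested. In the main setting, 8.91% of all genes were called in the Bdnf pair, 26.3% in the Hgf pair and 23.6% between the control lungs. Such shares were not computed under the alternatives, so the counts of genes called there have no background beside them. Leaving out shared barcodes and every alternative for the control lungs were added after the data were seen. No paired analysis was possible because each group is 1 library, which also left no replicate to omit. Depth limits Slco1a4 and Mfsd2a in lung, with 3 to 58 UMIs.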

Other observations

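In the lungs, some of the 10 genes had higher levels in an epithelial class than in ECs. In Bdnf control, Bdnf iPCKO, Hgf control and Hgf iPCKO lung, Ocln had 189, 212, 165 and 175 CPM in alveolar type 1 barcodes, which form the thin gas-exchange epithelium, against 53.9 to 68.5 CPM in ECs. Slc16a1 had 80.6, 67.7, 70.6 and 62.8 CPM in alveolar type 2 barcodes, the surfactant-making cells, against 9.38 to 17.8 CPM in ECs. Slc2a1 had 38.3 to 44.5 CPM in airway barcodes and 8.57 to 16.2 CPM in ECs of the 4 lungs. Abcb1a and Cldn5 had 92.6 to 95.4% and 94.8 to 98.0% of their UMIs in lung barcodes over the UMI minimum found in endothelial ones.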
